A study of Mus musculus with 4 samples.

Results

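Open chromatin at the genes of matrix metalloproteinases (MMPs) and of their tissue inhibitors (TIMPs) was examined in mouse macrophages before and after a short exposure to IL-4. The 10 genes were Mmp2, Mmp8, Mmp9, Mmp12, Mmp13, Mmp14, Mmp19, Timp1, Timp2 and Timp3. A region was assigned to a gene when the highest of its merged peaks carried that gene's name in the deposited annotation, which names the gene of the nearest transcription start site (TSS). This rule gave 41 regions of 60710 in the whole series, and it used no comparison between control and IL-4.

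MMPs are zinc-dependent endopeptidases that are made as inactive proenzymes and cleave collagens, elastin, gelatin and other proteins of the extracellular matrix. Gelatinases degrade denatured collagen, collagenases cut the intact triple helix, and the membrane-type enzyme Mmp14 acts at the cell surface, where it activates pro-Mmp2 with Timp2 as an adaptor. TIMPs bind the active site and block it. Macrophages use these enzymes in tissue remodelling, and Mmp12 is known as macrophage elastase. IL-4 drives alternative polarization of macrophages through the transcription factor STAT6.

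Bone marrow cells of wild-type mice on the C57BL/6 background, aged 8 to 12 weeks, were cultured for 6 days with L929 supernatant, which supplies M-CSF, to give bone marrow-derived macrophages (BMDMs). They were left as controls or received 20 ng/ml IL-4 for 1 h, with 2 libraries in each group from biological replicates. ATAC-seq was done on nuclei of 25000 cells per library. In this assay the transposase Tn5 cuts accessible DNA and attaches sequencing adapters to it. How many mice were pooled for a library is not given in the sources used here.

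The control libraries held 45250 and 41885 peaks and the IL-4 libraries 41978 and 39462, with replicate 1 named first. Peak height is used below for the deposited peak score, read as −log10 of a q-value, and its median was lowest in IL-4 replicate 2 (6.41, against 7.46 to 8.04 in the others). Read depth is unknown, and a deeper library gives higher peaks. All 10 macrophage marker genes had a region, and Adgre1, Cd68, Fcgr1, Lyz2 and Spi1 had a promoter peak in all 4 libraries. Their summed heights were 446, 390, 378.5 and 271 in the order control 1, control 2, IL-4 1 and IL-4 2, in which every list of values below is given. B cell marker regions (3 of 6 genes, none at Cd79a or Pax5) summed to 70.4, 48.4, 27.5 and 20.2, and fibroblast or stroma marker regions (5 of 10 genes, none at Col1a1, Col1a2, Dcn, Tbx5 or Thy1) to 66.6, 31.2, 56.98 and 21.6. T cell markers had regions at 4 of 7 genes and erythroid markers at 1 of 5. The part of other cell types in the results below was not tested.

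The 6 sequences that follow are those the results turn on. They are the neighbouring Mmp12 regions with opposite changes, an Mmp13 region with peaks in the IL-4 libraries only, the Mmp9 upstream region, and the Mmp8 and Mmp13 promoters up to the TSS. They were read 5′ to 3′ from GRCm38.p6, the assembly behind mm10, and at most 300 bases of a region are shown. Capitals mark matches to STAT motifs (TTC, any 4 bases, GAA; or TTCNNNGAA), AP-1 (TGACTCA or TGAGTCA), PU.1 (GAGGAAGT) and C/EBP (TTGCNNAA), each searched on both strands.
Mmp12 region 16851 bp upstream (chr9:7330365-7330664, + strand): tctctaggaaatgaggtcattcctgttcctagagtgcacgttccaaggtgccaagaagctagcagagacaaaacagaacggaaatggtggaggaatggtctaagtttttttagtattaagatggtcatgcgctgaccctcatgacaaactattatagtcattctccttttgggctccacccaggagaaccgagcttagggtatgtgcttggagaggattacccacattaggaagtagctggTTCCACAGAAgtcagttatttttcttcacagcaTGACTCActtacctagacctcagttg
Mmp13 region 10806 bp upstream (chr9:7261584-7261819, + strand): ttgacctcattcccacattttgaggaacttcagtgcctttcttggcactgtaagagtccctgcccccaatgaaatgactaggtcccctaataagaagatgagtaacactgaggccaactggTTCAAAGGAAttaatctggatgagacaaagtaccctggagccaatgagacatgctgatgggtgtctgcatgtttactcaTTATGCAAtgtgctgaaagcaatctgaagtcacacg
Mmp12 region 15398 bp upstream (chr9:7331858-7332137, + strand): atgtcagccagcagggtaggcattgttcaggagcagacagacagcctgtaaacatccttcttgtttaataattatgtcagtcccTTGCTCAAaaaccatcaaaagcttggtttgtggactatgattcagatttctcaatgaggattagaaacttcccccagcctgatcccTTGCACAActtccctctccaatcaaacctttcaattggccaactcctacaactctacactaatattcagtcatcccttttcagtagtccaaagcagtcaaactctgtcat
Mmp9 region 5126 bp upstream (chr2:164942853-164943152, + strand): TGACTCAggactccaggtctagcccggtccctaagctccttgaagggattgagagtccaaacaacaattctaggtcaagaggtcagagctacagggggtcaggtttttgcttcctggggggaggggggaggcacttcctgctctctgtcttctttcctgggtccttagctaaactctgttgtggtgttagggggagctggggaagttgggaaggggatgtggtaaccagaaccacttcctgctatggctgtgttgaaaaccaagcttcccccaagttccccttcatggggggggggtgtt
Mmp8 promoter, part before the TSS (chr9:7558260-7558428, + strand): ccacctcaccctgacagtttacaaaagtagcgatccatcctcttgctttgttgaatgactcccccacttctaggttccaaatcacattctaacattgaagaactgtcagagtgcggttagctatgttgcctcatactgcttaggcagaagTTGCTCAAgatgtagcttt
Mmp13 promoter, part before the TSS (chr9:7272317-7272513, + strand): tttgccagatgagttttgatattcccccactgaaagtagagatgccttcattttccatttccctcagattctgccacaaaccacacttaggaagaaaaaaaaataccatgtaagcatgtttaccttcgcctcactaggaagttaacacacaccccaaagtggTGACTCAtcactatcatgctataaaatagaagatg
In the Mmp12 sequence at 16851 bp the capitals are a STAT match with 4-base spacing, TTCCACAGAA, and an AP-1 match downstream of it. In the Mmp13 sequence at 10806 bp they are a STAT match with 4-base spacing, TTCAAAGGAA, and a C/EBP match on the other strand. The Mmp12 sequence at 15398 bp held a pair of C/EBP matches, the Mmp9 sequence an AP-1 match, the Mmp8 promoter a C/EBP match and the Mmp13 promoter an AP-1 match. A PU.1 match of the Mmp9 region lies outside the printed bases. A match describes letters of the reference genome and is no evidence of binding.

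Every gene had at least 1 region, from 1 at Mmp8 to 7 at Mmp12 and at Timp3. By HOMER's annotation 24 of the 41 regions were intergenic, 11 intronic, 4 at a promoter and 2 exonic, and 35 lay within 50 kb of the TSS. A peak was found in all 4 libraries at 14 regions (34.1%, against 41.9% of all regions), in 3 libraries at 7, in 2 libraries at 6 and in 1 library at 14. The libraries had peaks in 27, 24, 28 and 24 of the 41 regions. Counted as peaks, this was 25.5 ± 2.12 in control and 27.0 ± 4.24 in IL-4 libraries (SD, n = 2 each; exact permutation test, two-sided, p = 1). With 2 libraries per group this test cannot give a p under 0.3333.

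**Figure D1:**
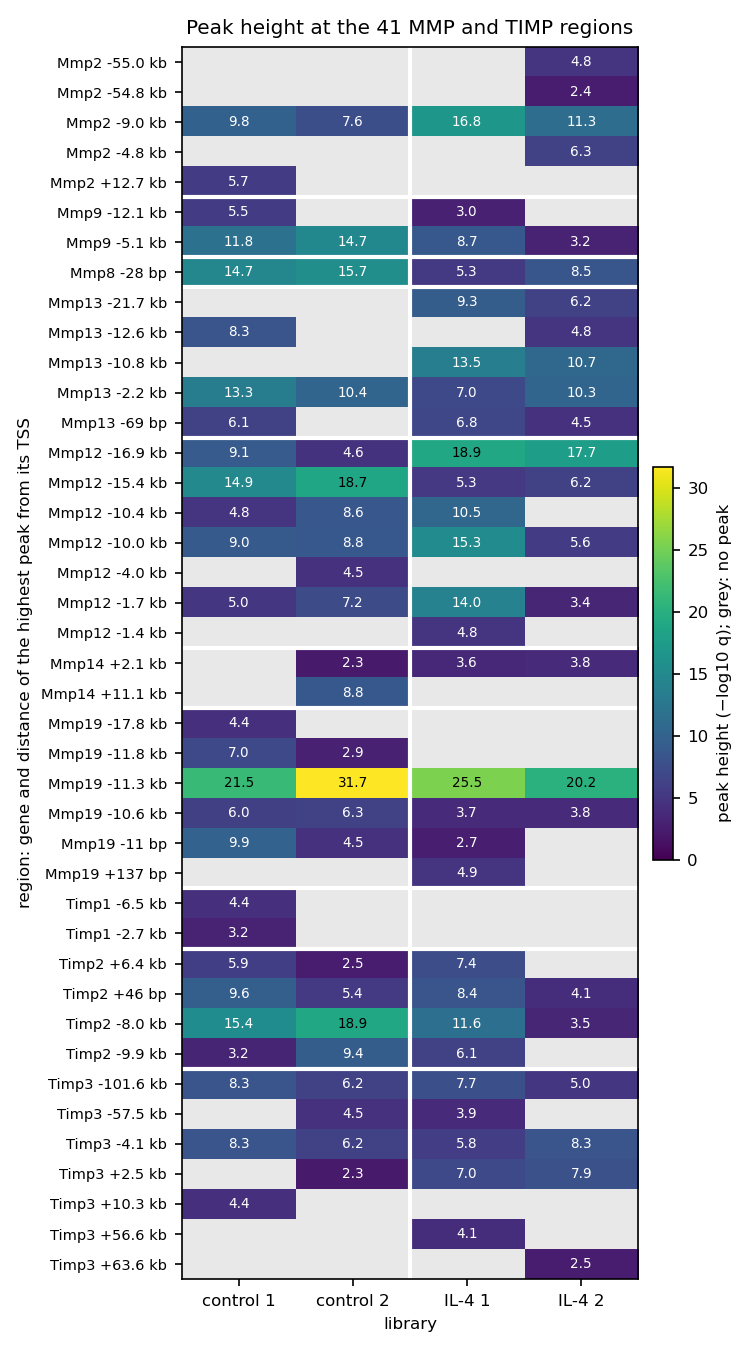
Peak height (−log10 q, colour and printed value) of the 41 regions in rows against the 4 libraries in columns, with grey where a library had no peak. The Mmp13 regions at 21655 and 10806 bp upstream have values in the IL-4 columns alone, and the Mmp19 region at 11306 bp upstream is the highest row in each library.

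Open chromatin at the TSS itself was limited to some of the genes. A region reached the TSS of Mmp8, Mmp13, Mmp19 and Timp2. No region of any gene lay within 1000 bp of the annotated TSS of Mmp2, Mmp9, Mmp14, Timp1 or Timp3. Mmp12 has an upstream TSS, with a region seen in 1 library at 961 bp from it, and a downstream TSS with the nearest region at 1369 bp. The missing peaks say that no peak passed the caller's threshold in these libraries, not that the promoters were closed.

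The comparison of IL-4 with control asked whether 1 h of stimulation changed accessibility at these genes. The 14 regions seen in all 4 libraries had height differences of both signs. Mmp12 at 16851 bp and Mmp2 at 9026 bp upstream were higher after IL-4, whereas Mmp12 at 15398 bp, Timp2 at 8005 bp, Mmp9 at 5126 bp and the Mmp8 promoter were lower. These 6 regions had an unadjusted p under 0.05, but none of the 14 passed limma's test at an adjusted p of 0.05. Over all 25442 regions tested, 0.0236% passed it (4 higher and 2 lower), and 8.28% had an unadjusted p under 0.05 against 6 of 14 here. The count of 6 fell whichever library was left out, and most without control replicate 2. The share of 8.28% over all tested regions fell each time as well. P-values of the main fit rest on the spread between 2 libraries per group, which limma drew toward a trend of variance with height over all tested regions. Where 1 library was left out, the lone library of its group was assumed to vary like the other group.

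Normalised heights of the groups did not overlap at 7 of the 14 regions, 2 of them higher and 5 lower after IL-4, where 37.8% of all tested regions were apart in one direction or the other. The median change over the 14 regions was −0.04 on the log2 scale of quantile-normalised height, and that of all tested regions was −0.00065. The median size of the change without its sign was 0.43 over the 14 regions and 0.31 over all. The 14 regions had a median normalised height of 9.38, and all tested regions 10.3.

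**Figure D2:**
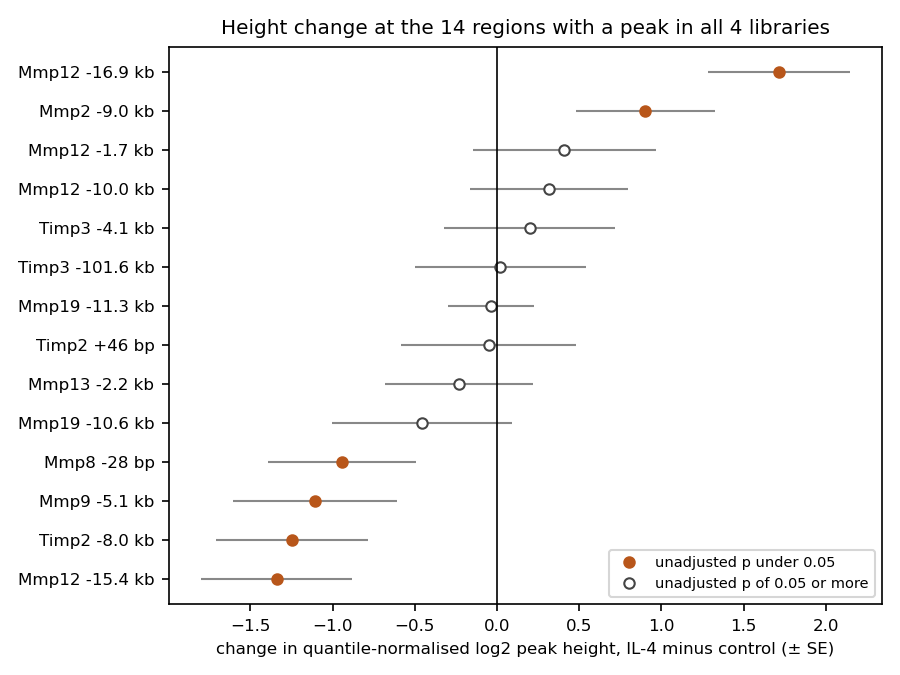
Change in quantile-normalised log2 peak height, IL-4 minus control (x axis, bars show the SE of the limma fit), for the 14 regions seen in all 4 libraries (y axis), with filled points for an unadjusted p under 0.05. Mmp12 at 16.9 kb upstream stands at 1.71 and its neighbour at 15.4 kb at −1.34, and 8 open points lie between −0.46 and 0.41.

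Of the gelatinases, Mmp2 and Mmp9 each had a single region in all 4 libraries, and these differed in direction. The Mmp2 region (chr8:92818167-92818455, intergenic, 9026 bp upstream) had heights of 9.81, 7.56, 16.79 and 11.35. Both IL-4 libraries stood above both controls (log2 change 0.90 ± 0.42 SE, limma adjusted p = 0.57). The other 4 Mmp2 regions were seen in 1 library each, with heights of 2.37 to 6.27, and 3 of them in IL-4 replicate 2. The region nearest the Mmp2 TSS, 4780 bp upstream, was one of these (6.27). The Mmp9 region (chr2:164942813-164943224), 5126 bp upstream and within an intron of a longer predicted Mmp9 model, had heights of 11.84, 14.74, 8.74 and 3.17. Here both IL-4 libraries stood below both controls, and IL-4 replicate 2 was the lowest (−1.11 ± 0.50 SE, limma adjusted p = 0.55). The change was −0.52 without IL-4 replicate 2 and −1.68 without IL-4 replicate 1. The other Mmp9 region, 12136 bp upstream, had a peak of 5.52 in control replicate 1 and of 2.95 in IL-4 replicate 1.

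The collagenase genes Mmp8 and Mmp13 lie with Mmp12 in a cluster of 10 MMP genes on chromosome 9 (chr9:7272514-7699585). The single Mmp8 region covered its promoter and first exon (chr9:7558260-7558499, 28 bp upstream) and overlapped an exon of the predicted antisense RNA Gm31751. Its heights were 14.65, 15.66, 5.34 and 8.47, so that the groups did not overlap (−0.94 ± 0.45 SE, limma adjusted p = 0.58). Without IL-4 replicate 1 the change was −0.43, and without IL-4 replicate 2 it was −1.43. Mmp8 is known as neutrophil collagenase. Neutrophil markers had regions at 6 of 10 genes, with the S100a8 promoter open in all 4 libraries and none at Camp, Cxcr2, Ly6g or Ngp, and their summed heights were 40.65, 44.8, 41.7 and 23.4.

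Mmp13 had 5 regions, and 2 of them were seen in both IL-4 libraries and in no control library. The first (chr9:7261584-7261819), 10806 bp upstream and in an intron of the non-coding RNA Gm31639, had heights of 13.54 and 10.65 in the IL-4 libraries. The second, intergenic at 21655 bp upstream (chr9:7250683-7251014), had 9.35 and 6.17. The main fit left both out, since no control height was listed. An alternative fit put a fixed low height in place of each missing peak. It gave a log2 change of 3.32 ± 0.63 SE at 10806 bp and 2.67 ± 0.65 SE at 21655 bp. Neither passed (limma adjusted p = 0.39 for each), and the size of these changes rests on the height filled in. Both controls took that height, so the direction was set in advance. The SE and p-value hold no measured spread between the controls. Regions with a peak in both IL-4 libraries and no control library made up 2.53% of all regions, and 2 of the 41 at these genes. Nearer to the gene the groups overlapped. The region 2203 bp upstream had heights of 13.33, 10.36, 6.97 and 10.29 (−0.23 ± 0.45 SE, limma adjusted p = 0.94). At the promoter (chr9:7272317-7272606) the heights were 6.09 in control replicate 1, 6.81 in IL-4 replicate 1 and 4.55 in IL-4 replicate 2, with no peak in control replicate 2. The remaining region, 12608 bp upstream, was seen in 1 library of each group (8.34 and 4.83).

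Mmp12, the macrophage elastase, had 7 regions, all upstream of its downstream TSS, and 4 of them were seen in all libraries. At 16851 bp upstream (chr9:7330344-7330685) the heights were 9.10, 4.62, 18.94 and 17.68. Both IL-4 libraries stood well above both controls (1.71 ± 0.43 SE, limma adjusted p = 0.17). At 15398 bp upstream (chr9:7331858-7332137), 1172 bp further toward the gene, the order was turned around, with heights of 14.88, 18.67, 5.26 and 6.19 (−1.34 ± 0.46 SE, limma adjusted p = 0.37). With a library left out, the change lay between 1.33 and 2.10 at the first region and between −1.63 and −1.03 at the second. Their direction could hardly turn in this check, since the groups did not overlap at either region. The adjusted p of the first ranged from 0.0644 to 0.80 over all alternatives. The regions closer to the TSS gave no such separation. At 9995 bp upstream the heights were 9.0, 8.77, 15.26 and 5.64 (0.32 ± 0.48 SE, limma adjusted p = 0.92), and at 1679 bp, within an intron, 5.01, 7.19, 14.01 and 3.43 (0.41 ± 0.56 SE, limma adjusted p = 0.90). In both, IL-4 replicate 1 was the highest library and IL-4 replicate 2 the lowest, and the change was negative without IL-4 replicate 1 (−0.22 and −0.50). The region nearest the TSS, 1418 bp upstream, was seen in IL-4 replicate 1 alone (4.82).

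**Figure D3:**
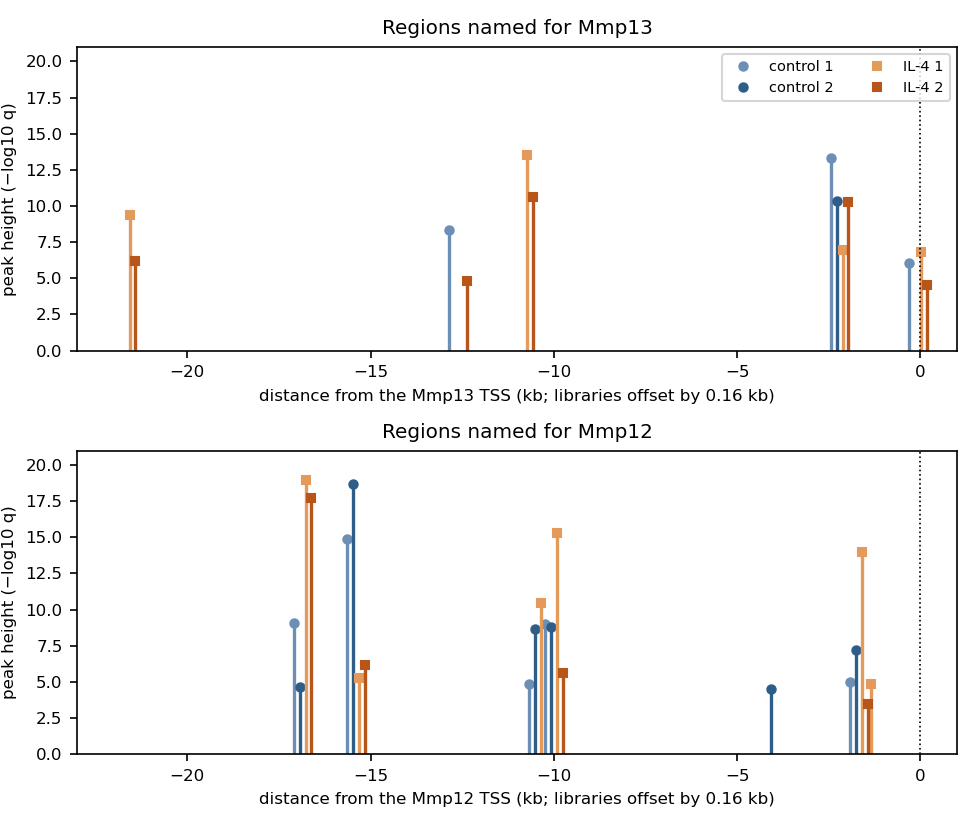
Peak height (−log10 q, y axis) against distance from the TSS (kb, x axis) for the regions of Mmp13 and Mmp12, with 1 line and point per library and a dotted line at the TSS. At Mmp13 only IL-4 libraries have points near 21.7 and 10.8 kb upstream, and at Mmp12 the IL-4 points are the higher ones at 16.9 kb and the lower ones at 15.4 kb.

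The membrane-type enzyme Mmp14 had no region in all 4 libraries. Its intron 1 region, 2108 bp downstream of the TSS, had heights of 2.31, 3.62 and 3.78 in control replicate 2 and both IL-4 libraries, and a region 11122 bp downstream was seen in control replicate 2 alone (8.78). Mmp19, a secreted enzyme that acts on basement membrane proteins, had the highest region of the 10 genes (chr10:128779404-128779871, 11306 bp upstream). Its heights were 21.51, 31.70, 25.46 and 20.25, so that the groups overlapped (−0.04 ± 0.26 SE, limma adjusted p = 0.99). A neighbour 10569 bp upstream had lower heights of 5.99, 6.29, 3.72 and 3.79, with both IL-4 libraries below both controls (−0.46 ± 0.55 SE, limma adjusted p = 0.88). Its change was −0.23 without IL-4 replicate 1, and merged within 500 bp it joined the region at 11306 bp, with a change of −0.04. Another region in this stretch, 11783 bp upstream (chr10:128779028-128779226), was the only one of the 41 seen in both control libraries (6.95 and 2.89) and no IL-4 library, a pattern found at 4.33% of all regions. The Mmp19 promoter, 11 bp upstream, had heights of 9.93, 4.51 and 2.69 in the control libraries and IL-4 replicate 1 and no peak in IL-4 replicate 2. A separate region in exon 1 (chr10:128791041-128791139, 137 bp downstream) had a peak in IL-4 replicate 1 alone (4.90).

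Among the inhibitors, Timp2 and Timp3 had regions in all 4 libraries and Timp1 had none. The Timp2 region 8005 bp upstream (chr11:118362991-118363544) had heights of 15.38, 18.95, 11.59 and 3.45. Both IL-4 libraries stood below both controls, and replicate 2 by far the more (−1.25 ± 0.46 SE, limma adjusted p = 0.41; −0.49 without IL-4 replicate 2 and −2.00 without IL-4 replicate 1). The Timp2 promoter did not follow it, with heights of 9.62, 5.43, 8.42 and 4.14, in which replicate 2 was the lower library of each group (−0.05 ± 0.53 SE, limma adjusted p = 0.99). Timp2 regions at 6391 bp downstream and 9910 bp upstream had peaks in every library but IL-4 replicate 2.

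Timp3, which stays bound to the matrix and also inhibits ADAM17, lies in an intron of Syn3, and its 7 regions reached 101611 bp upstream. At that distance the heights were 8.34, 6.18, 7.68 and 5.04 (0.02 ± 0.52 SE), and at 4075 bp upstream 8.30, 6.21, 5.81 and 8.34 (0.20 ± 0.52 SE), with overlapping groups and limma adjusted p-values of 0.996 and 0.95. The region nearest the TSS, 2484 bp downstream in intron 1, was absent in control replicate 1 and had heights of 2.27, 7.04 and 7.86 in the other libraries, with both IL-4 libraries above control replicate 2. The main fit left this region out, since 1 control library had no height. The alternative fit, with a fixed low height for the missing peak, gave a log2 change of 2.29 ± 0.70 SE (limma adjusted p = 0.39). The size and SE of this change rest in part on the height filled in. Both Timp1 regions, at 6495 and 2695 bp upstream, were seen in control replicate 1 alone (4.38 and 3.17) and lay within Syn1, so that the nearest-TSS rule alone ties them to Timp1.

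The STAT motif with 4-base spacing, the one that STAT6 prefers, was found in 2 of the 41 regions (4.88%, against 7.22% of all regions). The 2 were Mmp12 at 16851 bp and Mmp13 at 10806 bp, the region with the highest log2 change among the 14 tested and the higher of the 2 IL-4-only regions. Over all regions with a peak in both IL-4 libraries and no control library, 30.9% held it. The second IL-4-only region of Mmp13 and the Mmp2 region at 9026 bp held no match to it. Among regions as long as the Mmp12 region, to within 10 bp, 11.2% held this motif, and among those as long as the Mmp13 region 8.18% did. The spacing of 3 bases was found in 2 regions (Mmp12 at 1679 bp and Timp2 at 8005 bp, 4.88% against 6.90%). AP-1 was found in 9 regions (22.0% against 18.1%), C/EBP in 8 (19.5% against 12.1%), PU.1 in 5 (12.2% against 9.87%) and NF-kB in 1 (2.44% against 3.62%). The median length was 200 bp at the 41 regions and 209 bp over all.

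RefSeq promoter sequences of GRCm38.p6, from 250 bases before to 50 after the TSS, were at hand for 7 of the 10 genes (8 promoters), the others being Mmp2, Mmp9 and Mmp19. AP-1 was found in 2 of the 8, those of Mmp13 and of the downstream Mmp12 TSS, and in 5.20% of all 32851 promoters. C/EBP was found in the Mmp8 promoter and in that of the upstream Mmp12 TSS, as was PU.1, and these motifs were in 10.8% and 3.20% of all promoters. Neither STAT spacing nor NF-kB was found in the 8.

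No region of the related genes passed the test either. The other 16 MMP genes had regions at 11, and 0 of their 6 tested regions had a limma adjusted p under 0.05, with 1 lower at an unadjusted p under 0.05. Regulators of MMPs, such as the proprotein convertase Furin and the plasminogen activators Plau and Plat (15 genes in all), had regions at 13, of which 0 of 25 tested passed and 3 were lower at an unadjusted p under 0.05. Matrix substrates and receptors (10 genes) had regions at 6, of which 0 of 7 tested passed, with none under an unadjusted p of 0.05. Median log2 changes were −0.18, −0.10 and −0.04 in these lists. Regions seen only in the IL-4 libraries numbered 0 of 16, 3 of 83 and 0 of 28, and those seen only in the controls 1, 8 and 1.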

How the data were processed

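The deposited files list the ATAC-seq peaks of each library, called separately by the authors with no pooling. Per the labels and methods, the authors aligned reads to mm10 with BWA, called peaks with MACS2, removed blacklisted regions and annotated peaks with HOMER. The submitters' processing notes name BWA 0.7.10, SAMtools 0.1.19, MACS2 2.0.10 and HOMER 4.2. Tn5 shifting and duplicate handling are not given in the sources used here. The deposited score states no unit and was read as −log10 of the q-value that the authors' MACS2 run gave each peak, since its lowest value, 1.3, is −log10 of 0.05. The methods give a q of 0.01 (a score of 2), and 1262 peaks scored lower. The files hold no counts, so the authors' DiffBind test was not run.

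On the autosomes, X and Y, peaks sharing 1 bp or more were joined into 60710 regions (bedtools 2.31.1 gave the same number). Each region took the top score per library and the gene name of its top peak. The 25442 regions seen in all 4 libraries were tested together with limma 3.58.1 in R 4.3.3 on log2 scores after quantile normalisation (eBayes with a trend, no block). P-values were adjusted by Benjamini-Hochberg over these regions, and 0.05 was the threshold. An alternative fit took the 42752 regions seen in at least 2 libraries, with 1.3 for a missing peak. Coordinates are 1-based. Of 105 peaks at these genes, 87 had the same TSS distance within 2 bp in the RefSeq annotation of GRCm38.p6. Motif matches used that assembly.

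Regions were given with every library's value when nearest a TSS, among the 2 highest of a gene in all libraries, in one group only or under an unadjusted p of 0.05, and marker and related genes were matched by Entrez ID. Some marker genes are not reported here by name. The genes, lists and this rule were chosen with earlier results of these data known.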

Additional observations from a re-analysis of the deposited data

Results flagged for a closer look

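Some regions lay inside 1 of the 10 genes but carry a neighbour's name in the deposited annotation. The region flagged here was picked because both IL-4 heights were above any control height. It lay inside Timp2 and is named for Usp36, so the comparisons above did not use it. It is in intron 3 of Timp2 (chr11:118312266-118312686). Its heights were 3.46 in control replicate 2, 8.51 in IL-4 replicate 1 and 10.34 in IL-4 replicate 2, with no peak in control replicate 1. The mean of the IL-4 libraries was 9.425, which had to exceed both controls by the way the region was picked. The main fit left this region out, since control replicate 1 had no height. The alternative fit, with a fixed low height for the missing peak, gave a log2 change of 2.39 ± 0.74 SE (limma adjusted p = 0.39). Its direction was set by the pick, and its size and SE rest in part on the height filled in.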

How the results depend on the processing

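No region of these genes passed an adjusted p of 0.05 under any alternative, with a lowest adjusted p of 0.0644 at Mmp12 (16851 bp) with the replicate block. Replicate numbers are shared by label only, and the differences between replicates of the groups correlated at 0.0068 over regions. The block raised the calls over all regions from 6 to 14, and left the count at these genes at 6 under an unadjusted p of 0.05. Calls over all regions were 0 without a variance trend and 0 for regions in at least 2 libraries, and 0 to 14 when a library was left out. Leaving out a library gave 1 to 5 regions under an unadjusted p of 0.05, a median change of −0.23 to 0.079, 3 to 6 IL-4-only and 1 to 6 control-only regions. With a library left out, its group needed a peak, or the lack of a peak, in the remaining library only. Under this looser definition the IL-4-only and control-only counts could rise but hardly fall, so their rise says nothing about IL-4. Shares of all regions under the looser definition were not computed. The other way of merging, within 500 bp, left 0 control-only regions, and peaks above the pooled median height left 1 IL-4-only region. With median-centred heights the Mmp19 region at 11306 bp changed sign to 0.039. At the 7 regions where the groups did not overlap, the 6 above among them, leaving out a library could hardly change the sign. The sign did change at the other 7 regions. These were Mmp13 at 2203 bp (−0.66 to 0.21), Mmp12 at 9995 bp (−0.22 to 0.86) and 1679 bp (−0.50 to 1.30), and Mmp19 at 11306 bp (−0.42 to 0.34). The rest were the Timp2 promoter (−0.41 to 0.32), and Timp3 at 101611 bp (−0.12 to 0.17) and 4075 bp (−0.22 to 0.63). The cause of these moves was not tested. Of 212 values recomputed, 184 held. A region held if it kept its direction and side of the threshold, and a count of regions if it stayed within a fixed ratio of the main count. Medians, peaks per library and motif shares held if they moved by less than their error. Counting error cannot be given without reads.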

Other observations

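The regions in this section were chosen after their values were seen. At Mmp10, a stromelysin gene of the chromosome 9 cluster, the promoter had a peak in both control libraries (9.75 and 2.66) and in neither IL-4 library. The Mmp17 promoter, of a membrane-anchored MMP, was open in all 4 libraries with heights of 19.96, 17.56, 13.08 and 12.02, both IL-4 libraries below both controls (log2 change −0.37 ± 0.34 SE, limma adjusted p = 0.83). Timp4, the inhibitor gene outside the 10, had a region 32468 bp upstream with heights of 18.93, 18.28, 8.58 and 8.22 (−0.92 ± 0.39 SE, limma adjusted p = 0.52). Its region 20227 bp upstream had peaks in the IL-4 libraries only (6.12 and 4.55). Its region 16216 bp upstream had peaks in the control libraries only (4.28 and 7.46).

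Promoters of a pair of MMP regulators were lower in both IL-4 libraries than in both controls. At Lrp1, an endocytic receptor that clears MMPs, the heights were 23.89, 22.7, 10.96 and 9.37 (−0.99 ± 0.34 SE, limma adjusted p = 0.37). At Bsg, also called EMMPRIN for its induction of MMPs, they were 33.74, 30.79, 20.15 and 15.89 (−0.69 ± 0.25 SE, limma adjusted p = 0.40). Cd44 is a hyaluronan receptor that can hold Mmp9 at the cell surface. An intron region (51523 bp from its TSS) had heights of 2.64, 15.5 and 12.47 in control replicate 1 and both IL-4 libraries. Control replicate 2 had no peak there. Cd44 had many other regions, some seen in the controls only or the IL-4 libraries only. In its first exon, 105 bp from the TSS, heights were 13.54, 11.96, 16.77 and 5.42 (−0.18 ± 0.44 SE, limma adjusted p = 0.95).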
